A study of Homo sapiens with 54 samples.

Results

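The enzymes described here make serine, asparagine and proline and carry one-carbon units through mitochondrial folate. They are 10 genes chosen by symbol (PHGDH, PSAT1, PSPH, SHMT2, MTHFD2, ALDH1L2, ASNS, PCK2, PYCR1 and CTH) out of 33119 genes counted, and all 10 were found in both count tables. Transcripts were counted from their 3′ ends in 54 libraries of 6 established human cancer cell lines, in 18 groups of 3. In the first set of libraries, the colorectal cancer lines SW48 and SW620 were controls or were given trametinib, an inhibitor of the kinase MEK. In the second set, both lines were controls, were given trametinib or were given palbociclib, an inhibitor of the cyclin-dependent kinases that work with D-type cyclins. The second set also held the stomach cancer lines NCI-N87 and MKN-45 and the breast cancer lines BT-20 and BT-474, each as controls or given afatinib, an irreversible inhibitor of the EGFR and HER2 receptors. All lines were grown in the same serum-containing DMEM medium with antibiotics. The controls carried no agent that the labels name, and the sources used here state neither the dose of a drug nor how long it was given. BT-474 and NCI-N87 are known as lines with amplified ERBB2, which encodes HER2, BT-20 as a line with amplified EGFR, and MKN-45 as a line with amplified MET.

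PHGDH, PSAT1 and PSPH catalyse, in that order, the steps from a glycolytic intermediate to serine. SHMT2 splits serine in mitochondria into glycine and a folate-bound one-carbon unit, which MTHFD2 oxidises towards formate and ALDH1L2 can burn to carbon dioxide. ASNS makes asparagine from aspartate, PCK2 makes phosphoenolpyruvate in mitochondria, PYCR1 makes proline there, and CTH makes cysteine from cystathionine. Several of these genes, ASNS and PSAT1 among them, are textbook targets of ATF4, the transcription factor whose translation rises when amino acids run short or the kinase mTORC1 is active.

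Libraries held between 3401565 and 12806042 counts assigned to genes, the shallowest being NCI-N87 with afatinib. Levels are given as CPM, counts scaled to library size with TMM factors within a set, and changes as log2 fold changes with their standard errors (SE) from edgeR's quasi-likelihood test, with p-values adjusted by the Benjamini-Hochberg method over all genes tested. A gene was called at an adjusted p under 0.05. Whether the 3 libraries of a group stem from different cultures is not stated, and the tests measure a spread between libraries that may be technical. In bulk RNA, fewer cells and less RNA per cell cannot be told apart. Epithelial markers (5 genes) summed to between 1694 and 8710 CPM in every library, and leukocyte markers to at most 5.73 CPM. The stomach markers TFF1, TFF2, CLDN18 and MUC6 together reached at most 3.12 CPM in NCI-N87. Their sum was between 56.5 and 61.8 CPM in MKN-45 controls and between 341 and 363 CPM in controls of the breast line BT-474. This sum thus did not tell the stomach lines from the others.

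Some libraries lay nearer to another group of their line than to their own, and for NCI-N87 and SW620 drug effects are given with and without them. Each library was set against the mean of the other libraries of its own group and the mean of all libraries of the other group. The own-group distance is thus expected to be the larger where a drug changes little. An outlying library also raises it for the rest of its group. Over all genes, the first control NCI-N87 library lay nearer to the afatinib mean (SD of the log2 differences 0.226) than to the mean of the other control libraries (0.466). The first SW620 library given trametinib in the second set lay nearer to the control mean (0.199) than to its own group (0.297). All 3 control SW620 libraries of the first set lay nearer to the trametinib mean than to the rest of their own group. The third was far from both, at 1.05 from the other controls and 1.01 from the trametinib mean. It enters the own-group mean of the first and the second control (distances 0.607 and 0.608), which lay 0.402 and 0.340 from the trametinib mean. The same held by smaller margins for the first BT-20 library given afatinib (0.231 against 0.243 to its own group) and for the first (0.204 against 0.266) and the third (0.209 against 0.281) control MKN-45 libraries, in lines where few or no genes were called.

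Control libraries of the 6 lines in the second set differed in the level of every enzyme. All 10 passed a test of any difference between the 6 lines, where 97.1% of all genes tested did so too. SW48 held the most PSAT1, MTHFD2, ALDH1L2, ASNS and CTH, and MKN-45 held the least of PHGDH, PSAT1, PSPH, MTHFD2, ASNS and PCK2. The first enzyme of serine synthesis, PHGDH, had its own order: BT-20 libraries held 718, 730 and 740 CPM, and no library of another line exceeded 209 CPM. MKN-45 libraries held 45.1, 57.3 and 43.4 CPM of PHGDH, far below every BT-20 library.

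The second enzyme, PSAT1, ran from 1073 ± 56.1 CPM in SW48 (SD, n = 3) through 604 ± 88.4 in SW620 and 406 ± 13.3 in BT-20 to 74.5 ± 14.4 in MKN-45. BT-20 libraries, at 398 CPM or more, lay above those of BT-474, at 277 CPM or less. NCI-N87 could not be placed against either, since it ranged from 125 to 475 CPM and overlapped both. PSPH, which releases serine from its phosphate, stood at 194 ± 12.9 CPM in SW48 and 188 ± 8.65 in BT-20, with overlapping libraries, and at 37.7 ± 5.67 in MKN-45. Thus BT-20 was high for the first and last enzyme of the pathway and intermediate for the middle one.

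SHMT2 was highest in SW620, at 832 ± 18.9 CPM against 480 ± 41.7 in SW48, and the other 4 lines overlapped their neighbours between 156 and 209 CPM on the means. MTHFD2 was highest in SW48, at 653 ± 39.0 CPM, and lowest in MKN-45, at 104 ± 9.79. ALDH1L2 was a rare transcript everywhere, with 15.4 ± 2.06 CPM in SW48, 8.58 ± 0.988 in BT-20, 4.74 ± 0.742 in SW620 and under 2 CPM in each library of the remaining 3 lines, where it was too low to test for a drug effect.

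ASNS fell in order from SW48 (687 ± 72.1 CPM) through SW620 (328 ± 41.3) and BT-474 (234 ± 27.1) to MKN-45 (56.1 ± 8.74), with NCI-N87, at 55.3 to 267 CPM, overlapping BT-474, BT-20 and MKN-45. PCK2 was highest in BT-474, at 200 ± 14.1 CPM, with SW48 next at 169 ± 21.3 and MKN-45 lowest at 13.1 ± 1.85. PYCR1 was highest in SW620, at 562 ± 43.0 CPM, and showed the narrowest spread between lines, 4.22-fold from SW620 to NCI-N87. CTH stood at 44.0 ± 3.16 CPM in SW48 and at no more than 10.5 CPM in any control library of the other 5 lines of that set.

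**Figure D1:**
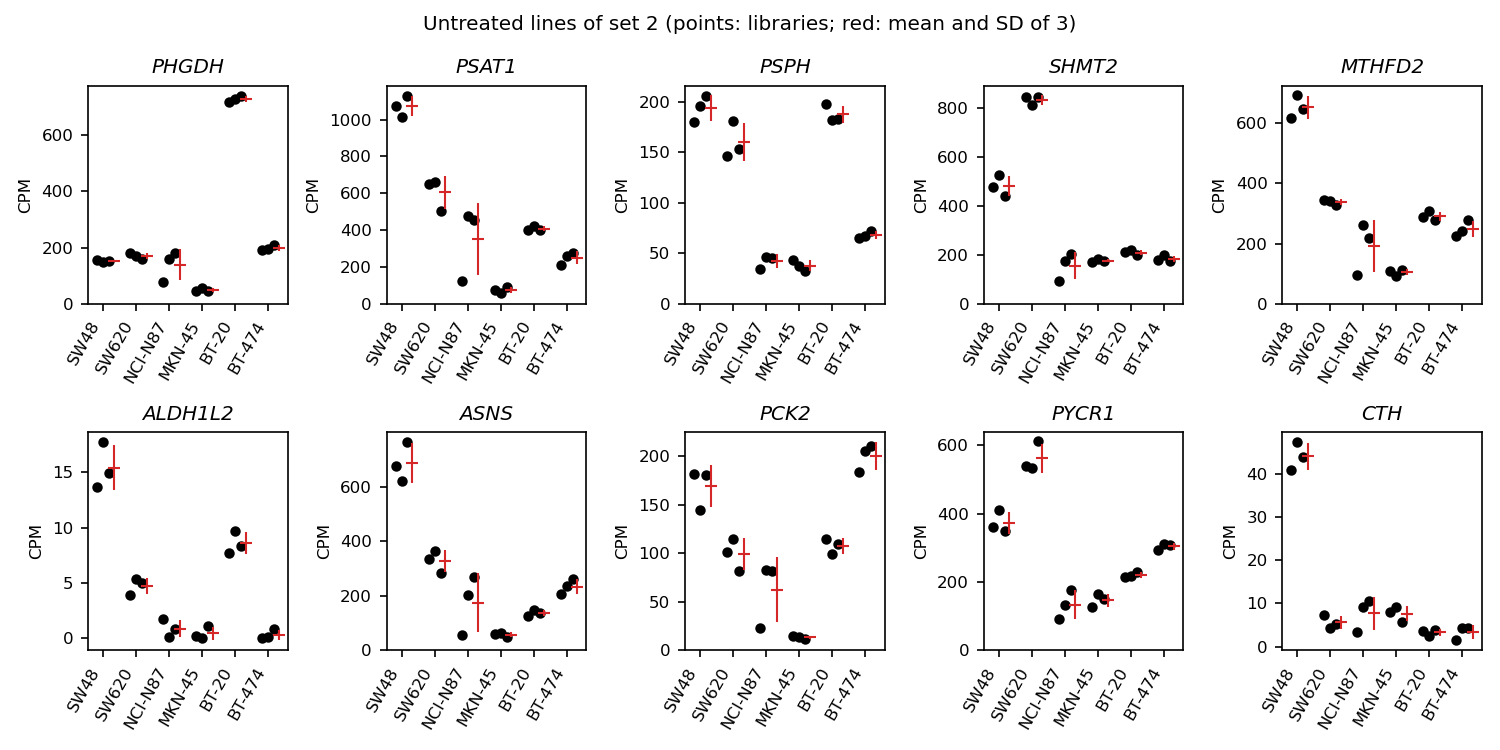
Levels (CPM, linear axis) of the 10 enzymes in the control libraries of the second set, by line. Points are libraries and the red mark is the mean with its SD over 3; BT-20 stands alone for PHGDH, SW48 for CTH, and the 3 NCI-N87 libraries spread widely for PSAT1 and ASNS.

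In SW48, every one of the 10 enzymes fell with trametinib in both sets and with palbociclib. In the first set all 10 were called lower, where 19.4% of the 12235 genes tested were, and the median change was -2.88 against 0.01 over all genes (log2). Trametinib in the second set lowered all 10 (30.1% of 12688 genes were called lower) with a median of -2.47, and palbociclib lowered all 10 (29.2% of 12690 genes) with a median of -2.41. For each enzyme in each of these comparisons all 3 treated libraries lay below all 3 controls, as did 26.3%, 31.7% and 31.2% of all genes. The trametinib and palbociclib comparisons of the second set share their 3 control libraries.

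**Figure D2:**
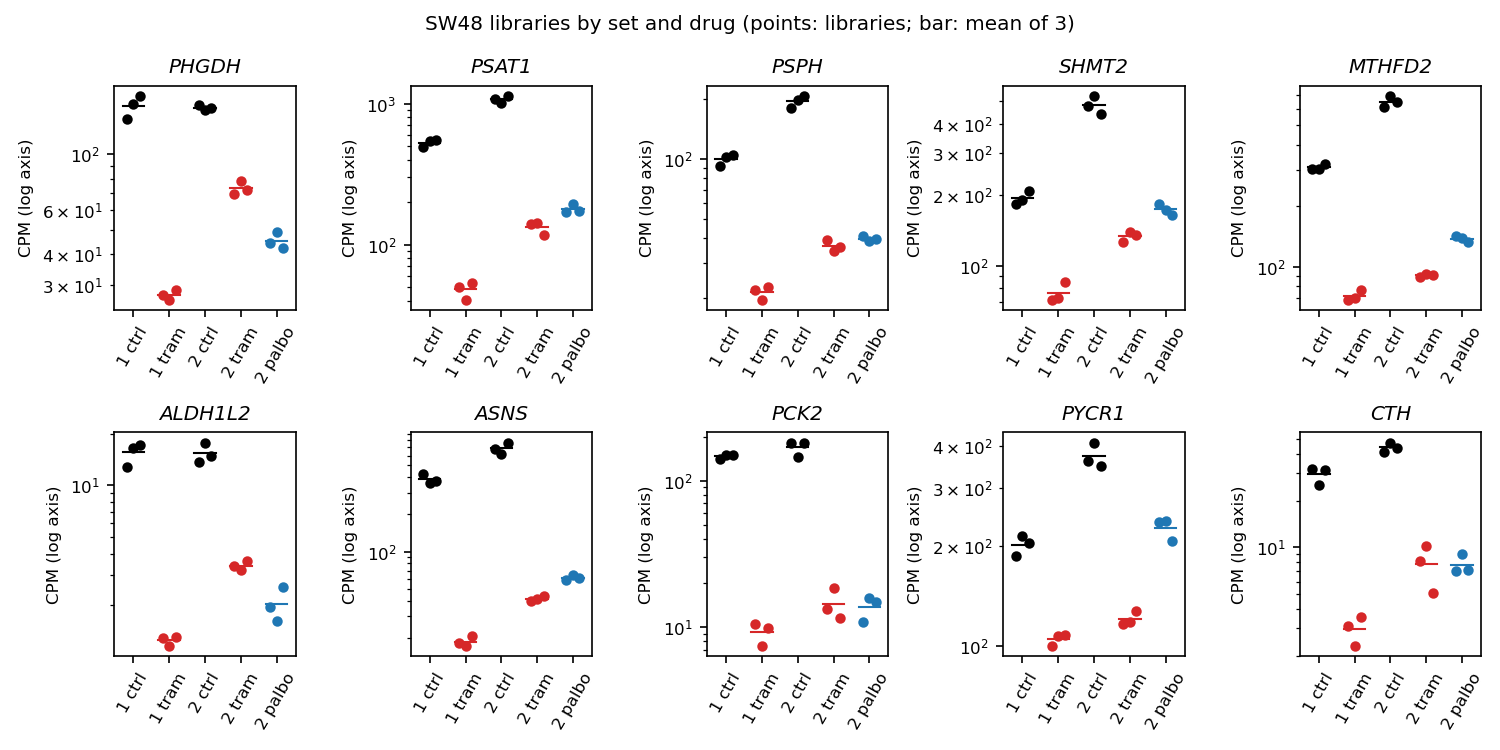
CPM (log axis) of the 10 enzymes in each SW48 library, by set (1 or 2) and drug; points are libraries and bars the means of 3. For every enzyme the treated libraries lie below the controls of the same set, and PYCR1 with palbociclib is the closest to its controls.

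ASNS was the enzyme that fell most with trametinib in SW48 in both sets, and with palbociclib it came after PCK2. Its control libraries of the first set held 425, 361 and 370 CPM and the trametinib libraries 18.2, 17.1 and 20.5 CPM. That is a log2 change of -4.36 (SE 0.12, adjusted p = 1.53e-06), 20.5-fold lower and the lowest value among the 10 enzymes. In the second set controls held 677, 620 and 763 CPM, trametinib libraries 40.0, 41.3 and 43.3, and palbociclib libraries 58.9, 64.8 and 60.7. The changes were -4.07 (SE 0.08) and -3.49 (SE 0.08), and no treated library came near a control.

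ASNS lies on chromosome 7 (GRCh38, 97851677 to 97928441, minus strand), and PCK2, the enzyme with the next largest fall in the first set, on chromosome 14 (24094171 to 24104125, plus strand). The 250 bases before a start site of each gene are printed. That start site lies inside the gene span just given, not at its outer end. The ASNS sequence holds the only match found to the core of the C/EBP-ATF response element, which ATF4 binds with C/EBP partners. The letters searched were TGATGNAA on both strands, and capitals mark the match. The sequences are from RefSeq (GRCh38.p14), 5′ to 3′ on the gene's strand, from chr7:97872409-97872658 (minus strand) and chr14:24094061-24094310 (plus strand).
ASNS: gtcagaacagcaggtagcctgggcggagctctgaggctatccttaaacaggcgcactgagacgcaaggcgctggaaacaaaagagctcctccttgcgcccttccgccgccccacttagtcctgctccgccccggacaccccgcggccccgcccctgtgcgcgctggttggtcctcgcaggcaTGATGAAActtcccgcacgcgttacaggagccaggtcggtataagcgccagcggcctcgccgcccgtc
PCK2: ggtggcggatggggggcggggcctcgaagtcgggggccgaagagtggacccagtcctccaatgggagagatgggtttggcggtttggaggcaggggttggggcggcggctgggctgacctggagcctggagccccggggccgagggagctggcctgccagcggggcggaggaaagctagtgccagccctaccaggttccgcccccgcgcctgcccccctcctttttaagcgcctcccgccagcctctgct
The ASNS match, TGATGAAA, begins at position -68 from this start site. A second ASNS promoter in the table, at chr7:97872116-97872415 (minus strand), held no match. RefSeq promoters of 300 bases were at hand for 6 of the 10 enzymes (PHGDH, PSAT1, MTHFD2, ASNS, PCK2 and CTH), and 1 of the 6 held the core, against 3.62% of the 35116 promoters searched. The E-box CACGTG, which MYC-family factors bind, was in 0 of the 6 and in 7.26% of all promoters. A match shows these letters in this window, and a missing match says nothing of the rest of the gene.

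PCK2 in SW48 dropped from 140, 150 and 149 CPM to 10.5, 7.39 and 9.86 with trametinib in the first set (log2 change -3.96, SE 0.14). Second-set libraries went from 182, 144 and 181 CPM to 13.2, 18.4 and 11.5 with trametinib (-3.58, SE 0.14) and to 10.8, 15.7 and 14.8 with palbociclib (-3.63, SE 0.13). The highest treated library of the 9, at 18.4 CPM, lay far below the lowest control, at 140 CPM.

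The serine pathway fell unevenly in SW48. PSAT1 libraries of the first set held 496, 539 and 548 CPM in controls and 50.1, 40.6 and 53.2 with trametinib, a change of -3.45 (SE 0.12). In the second set, controls held 1073, 1016 and 1129 CPM, trametinib libraries 139, 142 and 117, and palbociclib libraries 170, 193 and 173. PSAT1 thus fell 8.17-fold with trametinib and 6.04-fold with palbociclib in that set, with the 2 drugs' libraries fully apart. PSPH fell by between 2.20 and 2.43 on the log2 scale in the 3 comparisons. PHGDH fell least of the 3 serine enzymes in the second set: 157, 150 and 153 CPM in controls, 69.4, 78.2 and 71.8 with trametinib and 44.2, 48.8 and 42.2 with palbociclib. Those are changes of -1.09 (SE 0.07) and -1.78 (SE 0.07), against -2.49 (SE 0.12) with trametinib in the first set.

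Of the mitochondrial folate enzymes in SW48, MTHFD2 went in the second set from 617, 694 and 648 CPM to 89.2, 91.9 and 91.1 with trametinib (-2.87, SE 0.06) and to 142, 139 and 132 with palbociclib (-2.26, SE 0.07). SHMT2 fell by 1.87 (SE 0.07) with trametinib and by 1.48 (SE 0.07) with palbociclib on the log2 scale. ALDH1L2 fell from 13.7, 17.7 and 14.9 CPM to 3.36, 3.19 and 3.62 with trametinib and to 1.94, 1.61 and 2.55 with palbociclib. At these low levels its changes, -2.20 and -2.93, carry larger errors (SE 0.17 and 0.21).

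The proline enzyme PYCR1 fell least of the 10 with trametinib in the first set and with palbociclib, while PHGDH fell least with trametinib in the second set. PYCR1 went from 186, 214 and 204 CPM to 99.8, 107 and 108 in the first set (-0.93, SE 0.09), and in the second from 360, 410 and 350 to 116, 118 and 128 with trametinib (-1.65, SE 0.07) and to 237, 237 and 208 with palbociclib (-0.73, SE 0.08). CTH fell from 32.1, 25.1 and 31.4 CPM to 3.12, 2.31 and 3.53 in the first set (-3.27, SE 0.24). In the second set it went from 40.9, 47.2 and 43.9 CPM to 8.15, 10.2 and 5.07 with trametinib and to 7.01, 9.03 and 7.17 with palbociclib, changes of -2.52 and -2.51.

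Markers of cell identity moved with trametinib in SW48 too. The 5 epithelial markers summed to between 3886 and 4032 CPM in second-set controls, between 1694 and 1774 with trametinib and between 4534 and 5044 with palbociclib, so their sum was lower with one drug and higher with the other while the enzymes fell with both. The 4 fibroblast markers, of which COL1A2 and COL3A1 stayed near 0 in most SW48 libraries, summed to between 9.11 and 10.3 CPM in those controls, between 39.8 and 41.3 with trametinib and between 17.6 and 17.8 with palbociclib. The intestinal markers CDX1, CDX2, VIL1 and CDH17 summed to between 98.2 and 112 CPM in second-set controls. Their sum rose to between 251 and 277 CPM with trametinib and between 166 and 188 with palbociclib. With trametinib in the first set it rose from between 101 and 126 CPM to between 389 and 452. In the first set, the lines of the count table that name no gene held between 53.6% and 64.2% of SW48 control reads and between 69.7% and 73.8% with trametinib. The part of any of these in the enzymes' fall was not tested.

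The trametinib effect in SW48 was not equal in the 2 sets. In 1 fit of both sets, 5 of 10 enzymes differed between them, where 19.7% of 13429 genes did. PHGDH (by 1.40, SE 0.13) and ALDH1L2 (by 1.40, SE 0.33) fell less in the second set, and MTHFD2 (-0.77, SE 0.10), PYCR1 (-0.72, SE 0.12) and SHMT2 (-0.55, SE 0.13) fell more. For ASNS the difference was 0.29 (95% interval -0.02 to 0.60) and for PSAT1 0.41 (0.11 to 0.71, adjusted p = 0.0503). Control SW48 also held other levels in the 2 sets, for example 528 ± 28.2 and 1073 ± 56.1 CPM of PSAT1 (SD, n = 3 each), while PHGDH stood at 155 ± 16.6 and 153 ± 3.30. For SW620 the trametinib effect was not called different between the sets for any enzyme by edgeR (0% of 13696 genes, with 1013 genes and 0 enzymes at an unadjusted p under 0.05) or by DESeq2 (47 genes), and the differences ran from -1.29 for CTH (95% interval -2.81 to 0.23) to 0.16 for MTHFD2 (-1.09 to 1.41). The labels do not say what differed between the sets.

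In SW620, palbociclib lowered 9 of the 10 enzymes, where 17.4% of 13068 genes were called lower, with a median change of -1.25 against 0.00 over all genes. The same 9 had all 3 treated libraries below all controls, as did 25.3% of genes. The largest falls were those of ASNS and PHGDH. ASNS went from 334, 366 and 284 CPM to 36.8, 42.5 and 40.5 (-3.01, SE 0.11, adjusted p = 7.92e-08), and PHGDH from 181, 170 and 158 to 31.8, 27.2 and 34.4 (-2.43, SE 0.10). Both treated groups lay far below their controls.

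PSAT1, PSPH, SHMT2 and MTHFD2 fell by similar amounts in SW620 with palbociclib. The change of ALDH1L2 was larger in value but rests on few counts, running from -2.62 to -1.68 with 1 library left out. Whether it fell more than the others was not tested. PSAT1 went from 647, 663 and 503 CPM to 258, 267 and 302 (-1.11, SE 0.11), PSPH changed by -1.07 (SE 0.11), SHMT2 by -1.25 (SE 0.09) and MTHFD2 by -1.25 (SE 0.07). PCK2 fell 3.10-fold, from 101, 114 and 81.7 CPM to 30.1, 32.4 and 31.8. ALDH1L2 was at 3.91, 5.34 and 4.97 CPM in controls and 0.0900, 1.40 and 1.52 with it (-2.20, SE 0.55). PYCR1 changed little, from 541, 534 and 612 CPM to 473, 446 and 442 (-0.29, SE 0.08, adjusted p = 0.0187). That call was lost without the second palbociclib library (adjusted p = 0.0676) and without the third (0.0736). CTH, at 7.30, 4.32 and 5.23 CPM against 4.41, 2.45 and 2.06, overlapped its controls and was not called (-0.90, 95% interval -1.63 to -0.17, adjusted p = 0.056). The first palbociclib library held 151 CPM of the 4 fibroblast markers, mostly COL1A1, against at most 10.5 CPM in the controls and the other palbociclib libraries. The 5 epithelial markers summed to between 8130 and 8710 CPM with palbociclib and between 4701 and 5463 CPM without it. The part of these markers was not tested, and leaving out any 1 library left between 8 and 10 enzymes called.

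With trametinib, none of the enzymes was called in SW620 in either set. No gene at all was called in the first set (0% of 13081 genes) or the second (0% of 12919) by edgeR, while 366 and 2204 genes had an unadjusted p under 0.05 and DESeq2 called 14 and 208 genes, none of them one of the 10 enzymes. In the first set the median change of the enzymes was 0.08, and 1 of them, PYCR1, had all treated libraries above all controls (373, 371 and 387 CPM against 341, 333 and 272), as did 5.01% of genes. Control libraries differed more than the groups did: ASNS stood at 122, 111 and 298 CPM and MTHFD2 at 176, 208 and 515, with the third control high for both, whereas PCK2 stood at 74.9, 74.1 and 36.5 with the third control low. Without that library the changes of ASNS (0.16, SE 0.12) and MTHFD2 (0.15, SE 0.09) turned positive, and again no enzyme was called. The 4 stomach markers, mainly TFF1, summed to between 66.3 and 179 CPM in these controls and between 9.15 and 40.0 CPM with trametinib. Whether this difference bears on the enzymes was not tested.

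The 3 SW620 trametinib libraries of the second set spanned a wide range, and all 10 enzymes had a negative change, none of them called. The median enzyme stood at 105%, 74.2% and 32.4% of its control mean in trametinib libraries 1, 2 and 3. ASNS held 344, 163 and 22.8 CPM in them, against controls of 334, 366 and 284. SHMT2 held 850, 598 and 246 CPM against 842, 810 and 843, and PHGDH 182, 111 and 48.4 against 181, 170 and 158. The first library lay close to the controls for these enzymes, and the third lay below every control for all 10. ATF4 itself stood at 1028, 822 and 419 CPM in these libraries and at 937, 1093 and 983 in the controls. The changes ran from -0.97 (ALDH1L2, 95% interval -1.92 to -0.01) to -0.34 (PSAT1, -1.07 to 0.39), and ALDH1L2 alone had no overlap between groups (10.7% of genes lay wholly below). Without trametinib library 1, the median change was -0.79 and PHGDH was called lower (-1.08, SE 0.27, adjusted p = 0.0495), where 3.54% of 13141 genes were. That is the largest fall of the 6 fits with 1 library left out. Their medians ran from -0.79 to -0.18, against -0.48 with all libraries.

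**Figure D3:**
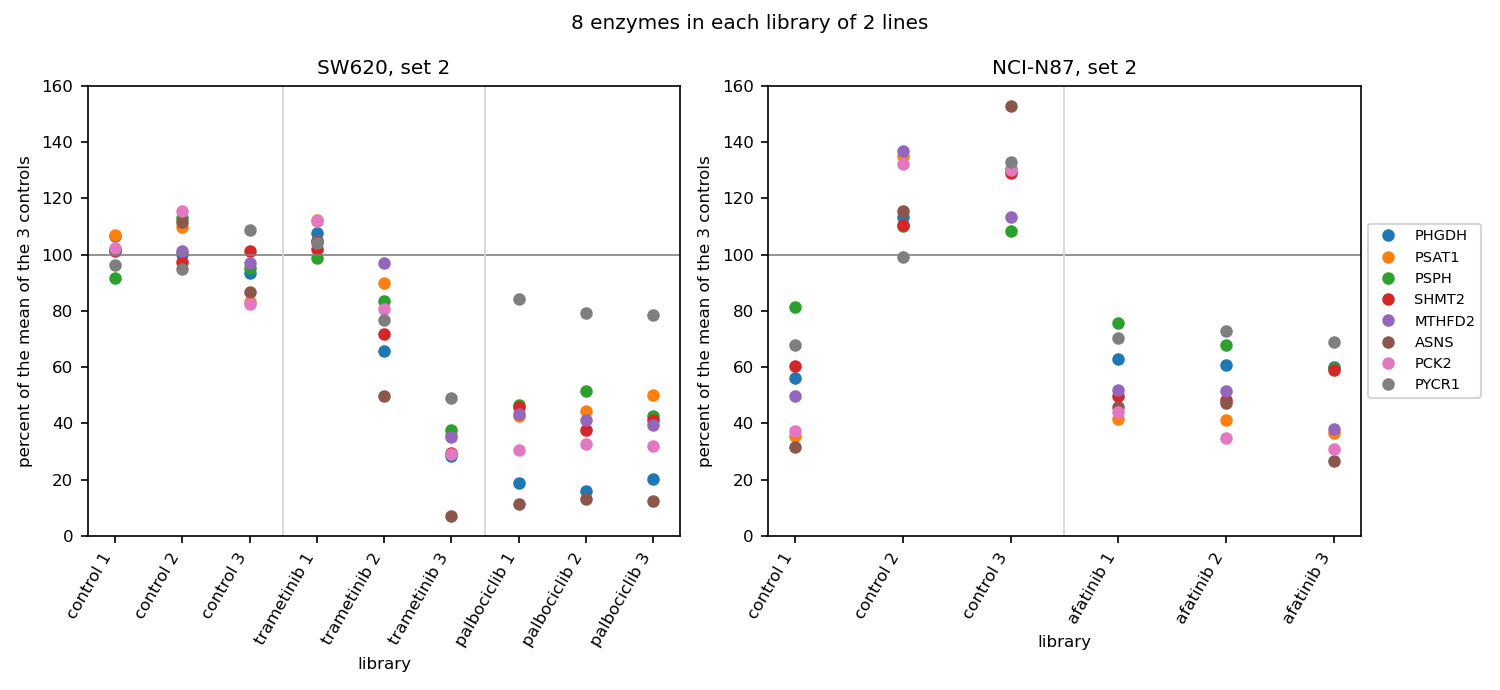
Level of 8 enzymes in each second-set library of SW620 and NCI-N87, as a percentage of the mean of the line's 3 controls (linear axis; each point is 1 enzyme in 1 library; ALDH1L2 and CTH, which are low, are left out). SW620 trametinib library 1 sits with the controls, and NCI-N87 control 1 sits with the afatinib libraries.

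The difference between the 2 colorectal lines was itself tested. The trametinib effect was less negative in SW620 than in SW48 in the first set for 9 of 10, where 3.95% of 14525 genes had a higher effect in SW620 and 6.73% differed in either direction. PCK2 differed most, by 4.13 (SE 0.38), and ASNS by 3.93 (SE 0.46). The ALDH1L2 difference (3.64, adjusted p = 0.0474) was lost in 10 of 12 fits with 1 library left out, and MTHFD2 missed the threshold (1.60, 95% interval 0.63 to 2.58, adjusted p = 0.0533). In the second set 8 of 10 differed the same way (15.3% of 14027 genes were higher, 28.2% differed), led by ASNS (3.19, SE 0.77) and PCK2 (3.16, SE 0.47). PHGDH (0.53, 95% interval -0.34 to 1.40) and ALDH1L2 (1.26, 0.27 to 2.25) were not called, and the SHMT2 call (1.32, SE 0.39) was lost without the first SW48 trametinib library (adjusted p = 0.0564).

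Palbociclib gave a mixed difference. It lowered 7 enzymes less in SW620 than in SW48, led by PCK2 (2.01, SE 0.20), CTH (1.63, SE 0.33) and PSAT1 (1.49, SE 0.14), and lowered PHGDH more (-0.64, SE 0.12). Of all 14098 genes, 14.6% had a higher and 11.2% a lower effect in SW620. ASNS differed by 0.49 (SE 0.14, adjusted p = 0.0184), a call lost without the third SW48 control (adjusted p = 0.08) or the second SW620 palbociclib library (0.0613). For SHMT2 the interval of the difference was 0.00 to 0.49 and the call was not made.

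The 2 drugs were also set against each other within each line. In SW48 trametinib left 5 enzymes lower than palbociclib did (20.9% of 12807 genes were called lower): PYCR1 (-0.92, SE 0.07), MTHFD2 (-0.61, SE 0.06), ASNS (-0.57, SE 0.07), PSAT1 (-0.44, SE 0.08) and SHMT2 (-0.38, SE 0.07). PHGDH was higher with trametinib (0.69, SE 0.08), where 21% of genes were higher. PCK2 (0.05, 95% interval -0.35 to 0.45), CTH (0.00, -0.50 to 0.51), PSPH (-0.13, -0.31 to 0.05) and ALDH1L2 (0.73, 0.09 to 1.37) were not called. In SW620 trametinib left 4 enzymes higher than palbociclib (15.9% of 13232 genes were called higher): ASNS (2.13, SE 0.65), PHGDH (1.86, SE 0.36), PCK2 (1.21, SE 0.35) and MTHFD2 (0.92, SE 0.30). PHGDH was the 1 enzyme whose libraries did not overlap, 182, 111 and 48.4 CPM against 31.8, 27.2 and 34.4, as was true for 23.8% of genes in that direction. Without SW620 trametinib library 1, 1 enzyme stayed called, PHGDH (1.36, SE 0.26). PHGDH was also the 1 enzyme called without trametinib library 2 or any 1 of the 3 palbociclib libraries, and 7 were called without trametinib library 3. DESeq2 called PHGDH alone, and with edgeR's robust dispersion none of the 4 calls was kept (PHGDH adjusted p = 0.0552).

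In the breast line BT-474, afatinib lowered 8 of the 9 enzymes tested, where 21.8% of 12768 genes were called lower, with a median of -1.01 against 0.01 over all genes. The same 8 had treated libraries wholly below the controls, as did 27% of genes. ASNS went from 206, 235 and 260 CPM to 75.2, 81.9 and 73.6 (-1.60, SE 0.09, adjusted p = 4.82e-08). PCK2 went from 184, 205 and 211 CPM to 79.3, 72.5 and 61.1 (-1.49, SE 0.09), and PSAT1 from 209, 260 and 277 to 87.3, 83.3 and 98.9 (-1.46, SE 0.10). For none of the 3 did a treated library come near its controls.

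The remaining serine and folate enzymes of BT-474 moved less. SHMT2 changed by -1.07 (SE 0.07), MTHFD2 by -1.01 (SE 0.09), PHGDH by -0.93 (SE 0.08) and PYCR1 by -0.78 (SE 0.07). PSPH changed least among those called, from 65.1, 67.3 and 72.4 CPM to 48.0, 51.6 and 51.3 (-0.43, SE 0.08, adjusted p = 0.00101). CTH, at 1.46, 4.32 and 4.28 CPM against 3.27, 3.64 and 2.79, was too low to place (-0.06, 95% interval -0.88 to 0.77).

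In the breast line BT-20, none of the 10 enzymes was called with afatinib by edgeR (0.585% of 12810 genes were called) or by DESeq2. By edgeR, 2 enzymes had an unadjusted p under 0.05 in either direction, as did 12.5% of all genes tested. The changes ran from -0.17 (PYCR1, 95% interval -0.32 to -0.02) to 0.20 (ALDH1L2, -0.22 to 0.62). PHGDH, at which BT-20 is so high, stood at 718, 730 and 740 CPM in controls and 707, 723 and 668 with it (-0.05, 95% interval -0.17 to 0.06). For PSAT1 the interval was -0.15 to 0.09 and for SHMT2 -0.18 to 0.11. PYCR1 alone lay wholly below its controls (9.93% of genes did). The test of the difference between the 2 breast lines called 8 enzymes lower in BT-474, where 13.6% of 14019 genes were, led by PCK2 (-1.67, SE 0.13), ASNS (-1.48, SE 0.17) and PSAT1 (-1.45, SE 0.12). ALDH1L2 and CTH, which are near 0 in BT-474, were not called.

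In the stomach line NCI-N87, none of the 9 enzymes tested was called with afatinib (0% of 12472 genes were). All 9 nevertheless had a negative change, with a median of -1.02, and an unadjusted p under 0.05. Of all genes, 12.2% had such a p in either direction. DESeq2 called 2 of the 9 enzymes, a count given without the share of all genes it called. The spread came from the controls: ASNS held 55.3, 202 and 267 CPM in controls and 80.1, 82.5 and 46.7 with afatinib. PSAT1 held 125, 475 and 455 CPM against 146, 145 and 128, and PCK2 23.3, 82.4 and 81.1 against 27.4, 21.8 and 19.2. Control 1 thus lay among the treated libraries, with the median enzyme at 52.9% of the control mean, against 114% and 130% in controls 2 and 3 and between 48.5% and 50.8% with afatinib. PSPH and SHMT2 were the 2 enzymes with no overlap between groups (7.93% of genes lay wholly below). Without control 1, all 9 were called lower, where 8.21% of 12850 genes were, with a median of -1.35. PCK2 then changed by -1.83 (SE 0.15), ASNS by -1.73 (SE 0.21) and PSAT1 by -1.73 (SE 0.11). With 2 controls left, the spread rests on few libraries. Control 1 also held 8.15% of its counts in mitochondrial ribosomal RNA, against 3.39% and 3.18% in controls 2 and 3. The afatinib libraries held 10.3%, 10.3% and 4.96%, and whether this bears on the enzymes was not tested.

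In the stomach line MKN-45, none of the 9 enzymes tested was called with afatinib by edgeR (0% of 12358 genes were called, 664 had an unadjusted p under 0.05) or by DESeq2, which called 0 genes. The changes ran from -0.13 (PYCR1, 95% interval -0.37 to 0.11) to 0.39 (PSAT1, 0.05 to 0.73). MTHFD2, at 109, 93.2 and 111 CPM in controls and 146, 140 and 114 with it, and CTH had all treated libraries above all controls, as did 6.06% of genes. The test between the 2 stomach lines called none of the 10 enzymes (0.0145% of 13791 genes were called, 1578 had an unadjusted p under 0.05, and DESeq2 called 36 genes but no enzyme), with a median difference of -1.11. Without NCI-N87 control 1, 7 were called lower in NCI-N87, where 3.5% of 14143 genes were.

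**Figure D4:**
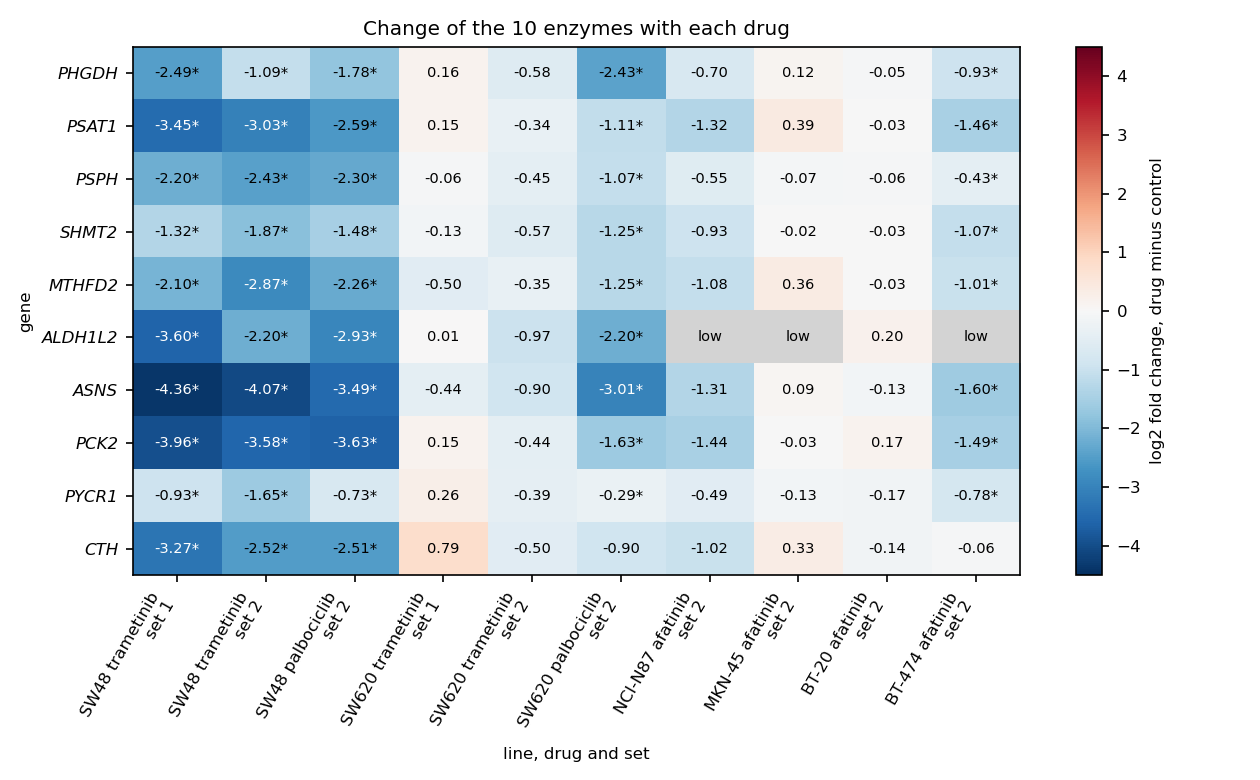
Log2 fold change of each enzyme (rows) with each drug against the same line's controls of the same set (columns), coloured by value; an asterisk marks an adjusted p under 0.05 and grey cells were too low to test. The SW48, SW620 palbociclib and BT-474 columns are called for nearly every enzyme, and ASNS in SW48 has the lowest values, -4.36 and -4.07.

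Paralogs of some of the enzymes were set beside them. SHMT1, the cytosolic counterpart of SHMT2, was not called in any drug comparison. In SW48 of the second set it held 26.1, 23.7 and 27.5 CPM in controls and 30.5, 31.99 and 28.5 with trametinib (0.22, SE 0.09, adjusted p = 0.0577). MTHFD1, the cytosolic enzyme that covers the step of MTHFD2, stood at 132 ± 5.71 CPM in SW48 controls and 130 ± 6.96 with trametinib (-0.04, SE 0.07). MTHFD1 did fall with palbociclib in SW48 (-0.50, SE 0.08) and SW620 (-0.51, SE 0.09) and with afatinib in BT-474 (-0.62, SE 0.07). The difference between a member and its paralog was not tested. PYCRL, a relative of PYCR1, rose with palbociclib in SW620, from 10.3, 9.78 and 5.40 CPM to 23.0, 19.6 and 26.1 (1.47, SE 0.21). The row MTHFD2P1, a pseudogene copy of MTHFD2, held 373 counts over all libraries, so few MTHFD2 reads were placed there.

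**Figure D5:**
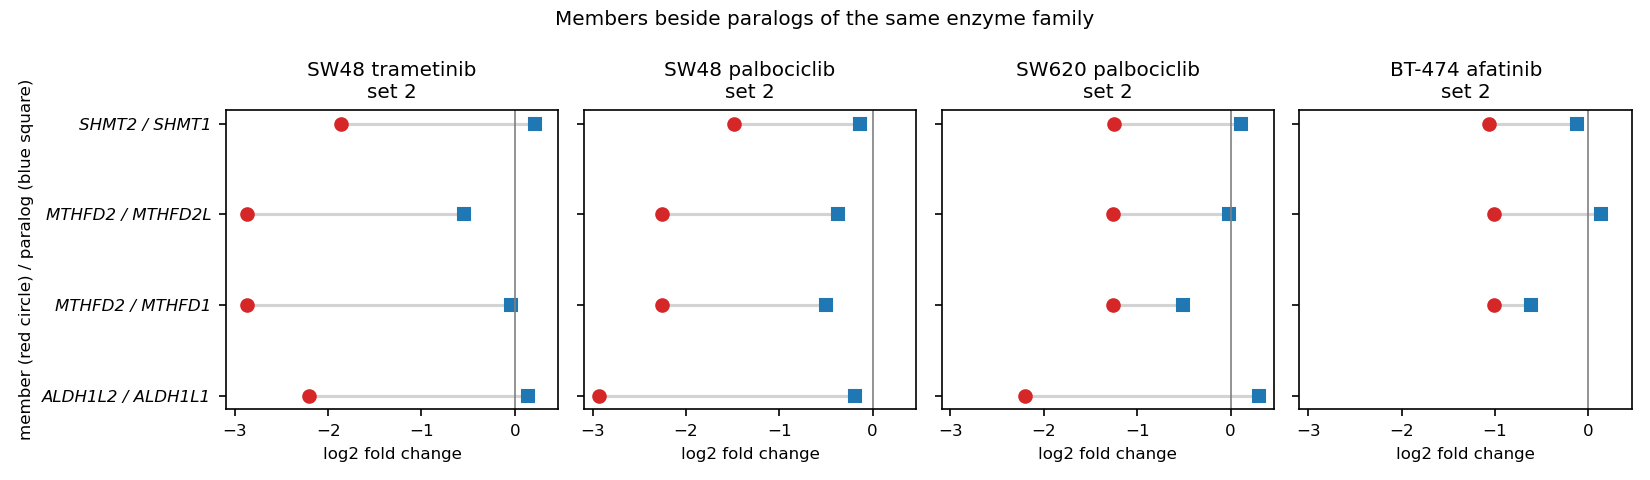
Log2 fold change of an enzyme (red circles) and its paralog (blue squares) in 4 comparisons of the second set. SHMT1 was not called where SHMT2 fell, whereas MTHFD1 fell in 3 of the 4; a pair is absent where a gene was too low to test.

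Lists of neighbouring pathways are read against the share of all genes called lower and higher, which was 19.4% and 16% in SW48 with trametinib in the first set, 30.1% and 30.1% in the second, 29.2% and 28.3% with palbociclib, 17.4% and 17.6% in SW620 with palbociclib, and 21.8% and 20.9% in BT-474. Of 11 amino acid transporters, 10 fell in SW48 with trametinib in each set and with palbociclib, and 9 fell in SW620 with palbociclib. SLC36A1, which was chosen after its values were seen, rose with both drugs in the second set of SW48 (0.60, SE 0.10, and 0.79, SE 0.11) and in SW620 with palbociclib (0.79, SE 0.12). SLC7A11, the cystine importer, changed in SW48 by -3.20 (SE 0.10) with trametinib in the second set and by -2.41 (SE 0.08) with palbociclib, in SW620 with palbociclib by -1.17 (SE 0.09) and in BT-474 with afatinib by -1.62 (SE 0.14). SLC7A5, the large neutral amino acid carrier, changed by -2.96 (SE 0.08) with trametinib in SW48 of the second set and was the 1 transporter called in BT-20 (-0.41, SE 0.06, adjusted p = 0.02, where 0.585% of genes were called). In BT-474, 6 of 11 transporters fell and 1 rose. The median over the list was -1.92 in SW48 with trametinib (second set), -0.51 in SW620 with palbociclib and -0.29 in BT-474.

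Aminoacyl-tRNA synthetases, which charge tRNAs with amino acids, were matched for 16 of 20 genes. In SW48 with trametinib, 12 fell in the first set (19.4% of all genes did) and all 16 in the second (30.1%). With palbociclib 12 fell and 2 rose in SW48 (29.2% and 28.3% of genes) and 11 fell and 2 rose in SW620 (17.4% and 17.6%), and 14 fell in BT-474 with afatinib (21.8%). WARS and YARS led in SW48 with trametinib (-2.75, SE 0.06, and -2.35, SE 0.07), and YARS led in SW620 with palbociclib (-1.22, SE 0.07) and in BT-474 (-0.995, SE 0.098).

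Regulators of the ATF4 response had lower medians than the other lists (-2.84 in SW48 with trametinib in the second set, -1.63 in SW620 with palbociclib, -0.70 in BT-474). In SW48, 14 of 15 fell with trametinib in each set (19.4% and 30.1% of all genes did) and 13 of 15 with palbociclib (29.2%). In SW620 with palbociclib 13 of 16 fell (17.4%), and in BT-474 10 of 15 fell (21.8%). EIF2AK4, a kinase that senses uncharged tRNA and was likewise chosen after its values were seen, was the 1 regulator that rose in SW48 with trametinib in the second set (0.26, SE 0.06) and in BT-474 (0.20, SE 0.06). ATF4 itself went in SW48 from 900 ± 67.4 CPM to 185 ± 11.2 with trametinib and 263 ± 12.9 with palbociclib, in SW620 from 1004 ± 80.4 to 369 ± 37.3 with palbociclib, and in BT-474 from 659 ± 33.6 to 433 ± 38.3 (SD, n = 3 each). In BT-20 it stood at 477 ± 7.39 and 459 ± 22.7 CPM and in MKN-45 at 188 ± 14.9 and 182 ± 19.2. CHAC1, a glutathione-degrading enzyme induced by ATF4, and DDIT4, an inhibitor of mTORC1, changed in SW48 with trametinib of the second set by -5.55 (SE 0.10) and -5.24 (SE 0.09). Endoplasmic reticulum chaperones differed by comparison. In SW48 with trametinib 12 of 18 fell and 3 rose in the first set (median -0.64; 19.4% and 16% of all genes), and 8 fell and 5 rose in the second (30.1% each way). With palbociclib 9 fell and 8 rose in SW48 (29.2% and 28.3%) and 3 fell and 6 rose in SW620 (17.4% and 17.6%), and in BT-474 1 fell and 6 rose (21.8% and 20.9%).

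Other folate genes were called at shares not far from those of all genes in SW48 and SW620. Of 14 tested, 5 fell and 3 rose in SW48 with each drug of the second set (30.1% of all genes each way with trametinib, 29.2% and 28.3% with palbociclib), and of 13 tested in the first set 3 fell (19.4%). In SW620 with palbociclib 3 of 15 fell and 3 rose (17.4% and 17.6%), and in BT-474 7 of 14 fell and 3 rose (21.8% and 20.9%). MTHFD1L, the mitochondrial enzyme that releases formate after MTHFD2, changed the most of these in SW48, with changes of -1.65 (SE 0.07) and -1.63 (SE 0.08) in SW48 with trametinib and palbociclib and -1.40 (SE 0.10) in SW620 with palbociclib. Of 12 genes of purine synthesis, which takes up one-carbon units, 5 fell in SW48 with trametinib in the first set (19.4% of all genes did) and 11 in the second (30.1%). With palbociclib 10 fell in SW48 (29.2%), and 7 fell and 1 rose in SW620 (17.4% and 17.6%), as did 7 and 1 in BT-474 (21.8% and 20.9%). Their medians lay between -0.58 and -0.30, for instance GART (-1.19, SE 0.08, with trametinib in SW48). Of the other amino acid genes, 3 of 10 fell and 2 rose in SW48 with trametinib in the first set (19.4% and 16% of all genes). In the second set 5 fell and 2 rose with trametinib (30.1% each way) and 3 fell and 3 rose with palbociclib (29.2% and 28.3%). In SW620 with palbociclib 1 of 11 fell and 4 rose (17.4% and 17.6%), and in BT-474 5 of 10 fell and 1 rose (21.8% and 20.9%). GPT2, an alanine transaminase, fell in SW48 (-1.87, SE 0.06, with trametinib in the second set), in SW620 with palbociclib (-1.20, SE 0.10) and in BT-474 (-1.11, SE 0.10), while OAT rose in SW48 with trametinib (1.14, SE 0.08).

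Across the 54 libraries, the 10 genes outside the set whose log2 level, taken from the controls of the same line and set, followed the mean of the enzymes most closely were TRIB3 (Pearson r 0.984), ATF4, CEBPG, DDIT4, CEBPB, EIF1, ADM2, CARS, SESN2 and EIF2S2 (0.969). This is a description over libraries that share lines and controls. Without SW48, in 39 libraries, r was 0.960 for TRIB3, 0.962 for ATF4 and 0.882 for SESN2. Among the enzymes themselves, PSPH (0.9748), PCK2 (0.973) and ASNS (0.972) followed the mean of the other 9 most closely. ALDH1L2 (0.812) and PYCR1 (0.854) did so least, and without SW48 the value was 0.403 for ALDH1L2 and 0.551 for CTH, the 2 rarest transcripts.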

How the data were processed

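Gene counts were made and deposited by the authors. Per the submitters' processing notes, reads were handled with Trimmomatic, STAR and featureCounts on hg38, with no versions or order given. Libraries used the Lexogen QuantSeq 3′ kit, per the labels' protocols, so CPM do not grow with transcript length and levels of different genes are not compared. The 12 first-set libraries appear again, with identical counts, in the second table, and the copies were not used. The 5 lines of the first table that name no gene, between 39.7% and 73.8% of a library's reads there, were left out. Each comparison was fitted alone on its own groups with edgeR 4.0.16 (filterByExpr with a minimum count of 10, TMM, quasi-likelihood test, 2-sided) in R 4.3.3, and line, drug and set differences as interaction terms or direct contrasts, 19 comparisons in all. The scripts were tested on simulated counts. The alternatives were DESeq2 size factors, no filter on low counts, DESeq2 1.42.0, a fit of all groups, a replicate block, a robust dispersion and each library left out. All 10 enzymes are named. Of each other list, called genes with the largest changes are named, plus paralogs and ATF4; a few such genes are not reported here. Similar genes had at least 16 CPM on average. The enzymes and lists were chosen with earlier results of these data known.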

Additional observations from a re-analysis of the deposited data

Results flagged for a closer look

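Drug effects that differed between lines or sets by a test of the difference itself were marked for a closer look. For trametinib, SW620 against SW48, these were 9 enzymes in the first set, with PCK2 furthest (4.13 on the log2 scale), and 8 in the second, with ASNS furthest (3.19). The first set's value rests on SW620 controls of which the third lay far from both the other controls and the trametinib mean. The second set's value rests on SW620 trametinib libraries that ranged from 105% to 32.4% of control. For palbociclib, 8 enzymes differed between the 2 lines, PCK2 the most (2.01), with PHGDH in the opposite direction (-0.64). For afatinib, 8 differed between BT-474 and BT-20, PCK2 the most (-1.67). The trametinib effect in SW48 differed between the sets for 5 enzymes, ALDH1L2 the most (1.40). The causes of these differences were not tested.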

How the results depend on the processing

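Of 95 called enzyme values, 95 stayed called with DESeq2 size factors, 94 with no filter on low counts, 92 with DESeq2 and 90 with a robust dispersion; no called value changed sign under any alternative. Fitting all groups of a set together, which lets other lines set the spread, kept 77 of 90, and fitting all groups of both sets kept 2 of 5. Leaving out each library in turn kept 768 of 798 values. Replicate numbers did not pair the samples (correlations of same-numbered libraries between -0.158 and 0.121). With a replicate block 93 of 95 values stayed called, and the number of enzymes called became 10 in place of 9 for palbociclib in SW620 and 3 in place of 4 for trametinib against palbociclib in SW620.

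Counts of called enzymes that moved were these, given without the share of all genes called under each setting. For afatinib in NCI-N87 (0) they were 5 with no filter, 2 with DESeq2, 5 with all groups and 0 to 9 with 1 library left out. For NCI-N87 against MKN-45 (0) they were 5 with no filter, 2 with all groups and 0 to 7 with 1 library left out. For trametinib against palbociclib in SW620 (4) they were 7 with no filter, 1 with DESeq2, 7 with all groups, 0 with a robust dispersion and 1 to 7 with 1 library left out. With all groups in 1 fit, the count was 5 for the palbociclib difference between lines (8), 4 for BT-474 against BT-20 (8), 2 for trametinib against palbociclib in SW48 (6) and, over both sets, 2 for the SW48 set difference (5). For trametinib in SW620 of the second set (0) it was 0 to 1 with 1 library left out. The cause was not tested. The SHMT2 trametinib difference between lines (second set) was lost with a robust dispersion (adjusted p = 0.064). Depth limits ALDH1L2 and CTH, which held few counts outside SW48.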
